A study of Mus musculus with 22 samples.

Results

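The genes described here are the embryonic and adult globins of mouse red blood cells and erythroid genes for heme synthesis and the red cell membrane, measured in E13.5 forebrain. The embryonic globins were Hbb-y, Hbb-bh1 and Hba-x, the adult globins were Hba-a1, Hba-a2, Hbb-bs and Hbb-bt, and the erythroid genes were Alas2, Slc4a1 and Ahsp. They were chosen by symbol from the RNA-seq count table, and 9 of the 10 were analysed among 24421 genes. Ahsp was not analysed here. RNA-seq was made from 3 KO and 3 control forebrains. KO embryos were labelled homozygous mutant for Prdm16, and the study's methods give them as carriers of the null gene trap alleles cGT or cGTreinv, kept by outcrossing to FVB/NJ. The sources used here do not say which of these alleles an embryo carried. The control label allows heterozygous as well as wild-type littermates, while the methods and the column names call the controls wild type. The labels name the tissue forebrain and the methods name cortices. Libraries carry the numbers of their column headers, F727, F728, F731 for KO and F722, F724, F725 for control, and 3 values of a group are always given in that order. The methods call the libraries biological replicates.

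Hemoglobin is built from alpha-like and beta-like globin chains, each holding a heme group. In the mouse embryo, the primitive red cells of the yolk sac enter the blood early and make the embryonic globins Hbb-y, Hbb-bh1 and Hba-x. The definitive red cells of the fetal liver make the adult globins, which were not taken here as a mark of those cells alone. Both lineages circulate in midgestation. The ratio of embryonic to adult globin RNA therefore describes the globin RNA of red cells in the vessels or spilled on the tissue. It does not give the share of each lineage. The summed globin RNA describes how much blood came along with the tissue.

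The beta-like genes lie on the minus strand of chromosome 7 (GRCm38, GENCODE M21), with Hbb-y at 103851749 to 103853216, Hbb-bh1 at 103841637 to 103843164, Hbb-bs at 103826534 to 103828096 and Hbb-bt at 103812524 to 103813996. The alpha-like genes lie on the plus strand of chromosome 11, with Hba-x at 32276400 to 32278116, Hba-a1 at 32283511 to 32284465 and Hba-a2 at 32296489 to 32297298. Slc4a1 lies on the minus strand of chromosome 11 at 102348824 to 102366203 and Alas2 on the plus strand of chromosome X at 150547375 to 150570638. All 7 globin genes have 3 exons, and the longest annotated transcript of each is between 554 and 801 bases long. That of Alas2 has 2037 bases in 11 exons and that of Slc4a1 has 4545 bases in 20 exons.

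The letters of the transcripts decide which of these genes a read can tell apart. The starts of the coding sequences below, 90 bases from the start codon in the first coding exon, show how far each embryonic globin has moved from its adult relative. Capitals in Hba-x mark bases that differ from Hba-a1 (44 of 90), and capitals in Hbb-y mark bases that differ from Hbb-bs (26 of 90). Hba-a2 had the same 90 letters as Hba-a1, and Hbb-bt the same as Hbb-bs.
Hba-a1 (chromosome 11, 32283707 to 32283796, plus strand): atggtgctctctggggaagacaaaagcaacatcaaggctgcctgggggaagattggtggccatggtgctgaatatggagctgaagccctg
Hba-x (chromosome 11, 32276664 to 32276753, plus strand): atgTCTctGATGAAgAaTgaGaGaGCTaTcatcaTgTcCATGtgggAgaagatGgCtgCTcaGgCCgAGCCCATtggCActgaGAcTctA
Hbb-bs (chromosome 7, 103827786 to 103827875, minus strand): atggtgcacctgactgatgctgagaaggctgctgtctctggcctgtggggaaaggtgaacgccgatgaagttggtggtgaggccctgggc
Hbb-y (chromosome 7, 103853063 to 103853152, minus strand): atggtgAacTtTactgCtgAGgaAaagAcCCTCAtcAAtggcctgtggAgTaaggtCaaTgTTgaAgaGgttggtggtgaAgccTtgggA

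Over the whole coding sequence, Hba-x was 61.7% identical to Hba-a1 and Hbb-y was 74.4% identical to Hbb-bs. Hbb-y and Hbb-bh1, the embryonic beta-like pair, were 76.4% identical. No window of 50 bases was shared by an embryonic and an adult transcript of the same locus in any of the 6 pairs compared, nor by Hbb-y and Hbb-bh1. The adult copies are another matter. The coding sequences of Hba-a1 and Hba-a2 differed at 1 base of 426, C381T in the third coding exon, counted from the A of the start codon with the base of Hba-a1 first, and 86.9% of the 50-base windows of the Hba-a2 transcript also occurred in that of Hba-a1. Hbb-bs and Hbb-bt differed at 1 base of 441, C417T with the base of Hbb-bs first, and 58.3% of the windows of Hbb-bt occurred in Hbb-bs. The stretches around these bases are shown with the differing base in capitals.
Hba-a1 (chromosome 11, 32284313 to 32284373, plus strand): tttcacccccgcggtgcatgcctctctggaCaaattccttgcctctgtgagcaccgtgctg
Hba-a2 (chromosome 11, 32297130 to 32297190, plus strand): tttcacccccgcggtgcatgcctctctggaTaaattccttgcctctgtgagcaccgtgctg
Hbb-bs (chromosome 7, 103826668 to 103826722, minus strand): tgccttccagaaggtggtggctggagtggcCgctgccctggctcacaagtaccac
Hbb-bt (chromosome 7, 103812659 to 103812713, minus strand): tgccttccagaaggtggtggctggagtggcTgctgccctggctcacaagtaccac

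The deposited counts were nearly equal for some adult entries and not for others. Hbb-bs exceeded Hbb-bt by 2.07-fold to 2.99-fold in counts, although their coding sequences differ at 1 base. Hba-a2 exceeded Hba-a1 by 0 to 73 counts in a library, at 12458 to 22926 counts for each gene. Of the further adult beta entries of the count table, Hbb-b1 differed from Hbb-bs by 1 to 8 counts and Hbb-b2 from Hbb-bt by 0 counts. The letters of Hbb-b1 and Hbb-b2 were not compared. The counts of these copies were therefore read as uncertain between genes, and reads of Hba-a1 and Hba-a2 may have been counted in both rows. Whether they were was not tested. Hbb-b1 and Hbb-b2 were left out of all sums, and the globin shares and ratios that hold both alpha copies are also given with Hba-a2 left out.

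The globin promoters share short motifs, printed here because their genes were read as a group. Each line holds the 120 bases before the RefSeq start (GRCm38.p6), on the strand of the gene. RefSeq and GENCODE starts differ, and the windows of Hba-x and Hbb-bs lie within the GENCODE gene bounds given above. Capitals mark 4 motifs searched on both strands, the CACCC motif, the CCAAT motif, the TATAA motif and, as a shifted form of it, the ATAAA motif. The last of these overlaps the TATAA motif where an A follows it.
Hbb-y (chromosome 7, 103853208 to 103853327, minus strand): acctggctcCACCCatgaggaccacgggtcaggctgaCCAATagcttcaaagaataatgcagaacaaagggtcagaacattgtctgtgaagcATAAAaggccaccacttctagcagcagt
Hba-x (chromosome 11, 32276480 to 32276599, plus strand): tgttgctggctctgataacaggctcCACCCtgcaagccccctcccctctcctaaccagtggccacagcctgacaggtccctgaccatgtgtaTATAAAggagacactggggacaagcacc
Hba-a2 (chromosome 11, 32296372 to 32296491, plus strand): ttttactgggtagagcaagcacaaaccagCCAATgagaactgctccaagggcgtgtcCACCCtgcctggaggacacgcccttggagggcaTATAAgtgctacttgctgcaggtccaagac
Hbb-bs (chromosome 7, 103827929 to 103828048, minus strand): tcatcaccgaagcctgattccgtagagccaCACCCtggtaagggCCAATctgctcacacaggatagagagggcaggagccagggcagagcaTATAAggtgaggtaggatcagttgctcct
Alas2 (chromosome X, 150547297 to 150547416, plus strand): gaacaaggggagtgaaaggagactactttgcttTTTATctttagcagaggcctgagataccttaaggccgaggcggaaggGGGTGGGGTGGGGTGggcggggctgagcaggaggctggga

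RefSeq promoters were matched for 7 of the 9 genes, all but Hbb-bh1 and Slc4a1. CACCC, a box long known from globin promoters, occurred in 7 of the 7 windows and in 31.7% of the 32851 windows of that length in the table. CCAAT occurred in 5 of 7 against 21.3% of all, TATAA in 5 of 7 against 11.8%, and ATAAA in 4 of 7 against 20.2%. In Hbb-y the CACCC began 111 bases before the start, in Hba-x 95, in Hbb-bs 90 and in Hba-a2 63. In Alas2 the 3 matches were GGGTG, on the other strand, beginning 40, 35 and 30 bases before the start. The letters of the Hba-a1 promoter were those of Hba-a2 displaced by 3 bases, so these 7 windows are not all separate. A match describes letters and not binding.

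The libraries were of unequal depth and one of them stood apart. Total counts ran from 28569526 to 43066648 in 5 libraries and were 16638433 in KO F731. KO F731 had counts in 22991 genes, against 17795 to 18320 in the others, and 7.39% of its counts fell on the ribosomal RNA entry Rn45s, against 0.224% to 2.43%. Prdm16 itself stood at 6.58 to 9.60 CPM (counts relative to library size, scaled by trimmed mean of M values, TMM) in the KO libraries and at 37.8 to 58.2 CPM in the controls. It was lower in 3 of 3 KO libraries (log2 fold change -2.61 ± 0.22, SE, adjusted p = 0.0536, edgeR). Over 11 genes of forebrain identity, such as Eomes of intermediate progenitors and Tbr1 of cortical neurons, 0 were called, 10 estimates were below 0 and the median log2 fold change was -0.15, and -0.09 without KO F731. They summed to 4042, 4068 and 3838 CPM in the KO libraries and 4478, 4370 and 4164 CPM in the controls. KO F731 was the lowest library for 6 of the 11, with a median deviation of -0.42 log2 from the mean of the others. The share of all tested genes with KO F731 lowest is not given here, and it was highest for 38.4% of them. Neurog2, a neurogenic factor, was at 154 CPM there and at 241 to 325 CPM in the other libraries. Eomes was at 150 CPM against 179 to 243 CPM. Tbr1 (250 CPM against 239 to 328 CPM) and Neurod6 (301 CPM against 294 to 497 CPM) lay inside the range of the others. The results are given with and without KO F731.

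Globin RNA took a small share of every library. The 7 globins made up 0.148%, 0.181% and 0.463% of the counts in the KO libraries and 0.180%, 0.182% and 0.191% in the controls. The share of KO F728 lay among the controls, KO F727 lay lowest, and KO F731 stood 2.63-fold above the mean of the other 5 libraries, which spanned only 1.29-fold. The Wilson 95% intervals, which cover counting error only, were at most 0.00326 percentage points wide to either side, and reads without molecular identifiers are not independent molecules. KO averaged 0.264% ± 0.173 (SD, n = 3) and control 0.184% ± 0.00612 (SD, n = 3), a mean log2 difference of 0.33 (two-sided exact permutation test, p = 0.9, where 3 against 3 cannot go below 0.1). Without KO F731 the mean log2 difference was -0.17 (exact permutation test, p = 0.4, smallest possible 0.2). With Hba-a2 left out, KO F731 held 0.326% and the others 0.114% to 0.147%. In bulk tissue, fewer red cells and less globin RNA per red cell cannot be told apart.

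The ratio of embryonic to adult globin was below 1 in every library. It was 0.676, 0.633 and 0.413 in the KO libraries and 0.643, 0.545 and 0.782 in the controls. KO F731 held the lowest ratio, and the other KO libraries lay inside the range of the controls, so that these 5 libraries spanned 1.44-fold. As a share of globin counts, the embryonic genes made up 40.3%, 38.8% and 29.2% in KO and 39.2%, 35.3% and 43.9% in control. The 95% intervals of these shares, for counting error only, were at most 0.416 percentage points to either side. With Hba-a2 left out the shares were 52.6%, 51.6% and 41.6% in KO and 51.9%, 47.4% and 57.0% in control. KO averaged 0.574 ± 0.141 and control 0.657 ± 0.119 (SD, n = 3 each, mean log2 difference -0.21, exact permutation test, p = 0.6). Without KO F731 the mean log2 difference was 0.01 (exact permutation test, p = 1.0). With Hba-a2 left out the ratio was 0.713 in KO F731 and 0.899 to 1.32 in the other 5 libraries, so whether embryonic counts exceed adult counts depends on how the alpha copies are counted.

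**Figure D1:**
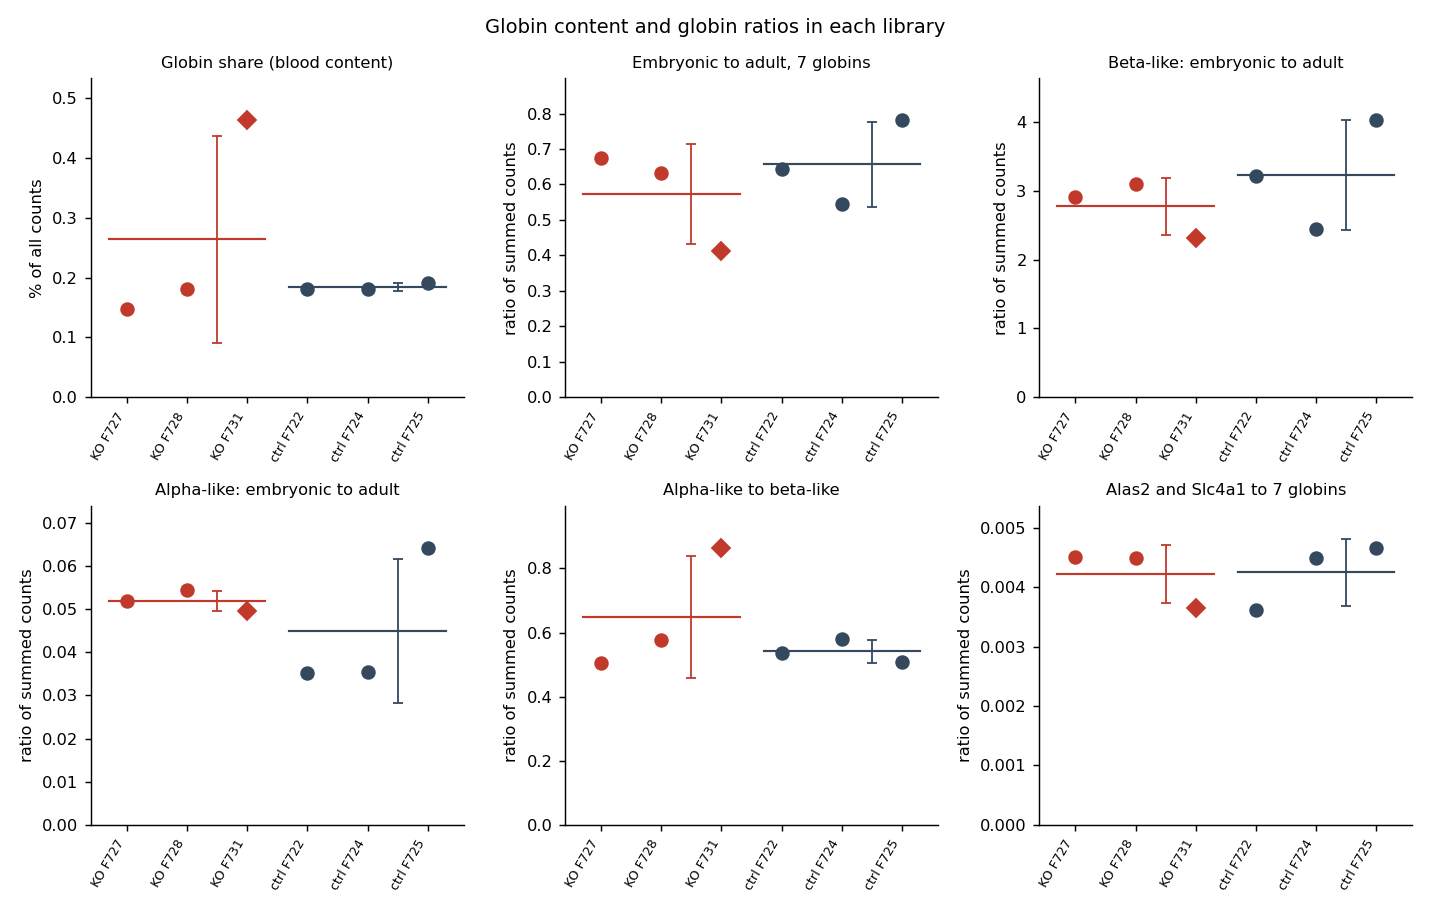
Globin share of all counts (percent) and 5 ratios of summed counts in each library, KO in red and control in dark blue, with KO F731 as a diamond. Horizontal lines are group means and bars are SD (n = 3). KO F731 lies highest for globin share (0.463%) and for alpha-like to beta-like counts (0.865) and lowest for embryonic to adult counts (0.413), and within the range of the controls for the alpha-like embryonic to adult ratio (0.0497).

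The beta-like and alpha-like loci were at different points between embryonic and adult RNA. At the beta locus the embryonic genes led, with a ratio of Hbb-y and Hbb-bh1 to Hbb-bs and Hbb-bt of 2.92, 3.095 and 2.31 in KO and 3.22, 2.44 and 4.03 in control. KO F731 was lowest, with control F724 next to it, and the groups overlapped (KO 2.77 ± 0.412, control 3.23 ± 0.795, SD, n = 3, exact permutation test, p = 0.4, and p = 0.8 without KO F731). At the alpha locus the adult genes led, with a ratio of Hba-x to the sum of Hba-a1 and Hba-a2 of 0.0518, 0.0544 and 0.0497 in the KO libraries and 0.0353, 0.0353 and 0.0642 in the controls. All 3 KO libraries lay between the controls, above F722 and F724 and below F725 (KO 0.0519 ± 0.00236, control 0.0449 ± 0.0167, SD, n = 3, exact permutation test, p = 0.4, and p = 0.6 without KO F731). With Hba-a2 left out the alpha ratio was 0.0705 to 0.128 over the 6 libraries.

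Among the controls, F724 and F725 were at opposite ends. Control F725 had the highest Hbb-y, Hbb-bh1 and Hba-x of the controls and the lowest Hba-a1, Hba-a2, Hbb-bs and Hbb-bt. Control F724 had the lowest Hbb-y and Hbb-bh1 and the highest Hba-a1, Hba-a2, Hbb-bs and Hbb-bt. Their globin shares, 0.182% and 0.191%, were close, so these libraries differed more in the kind of globin than in its amount.

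In KO F731 the alpha-like genes stood further above the other libraries than the beta-like genes. The ratio of alpha-like counts (Hba-x and Hba-a1, with Hba-a2 left out) to beta-like counts was 0.865 in KO F731 and 0.506 to 0.579 in the other 5 libraries, a 1.60-fold difference where the others spanned 1.14-fold. This ratio was added after the counts were seen. The embryonic to adult ratio of KO F731 was 0.630 of the mean of the other 5 over all 7 globins (0.651 with Hba-a2 left out), 0.735 of it within the beta locus and 1.03 of it within the alpha locus. Hbb-bs to Hbb-bt was 2.99 in KO F731 and 2.07 to 2.38 in the others, although these copies differ by a single coding base.

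Hbb-y, the main embryonic beta-like chain, was the most abundant globin row of 5 of the 6 libraries. Its level was 554, 628 and 1388 CPM in the KO libraries and 655, 581 and 754 CPM in the controls. KO F731 was high, and the other KO libraries lay within or just below the controls. The log2 fold change, KO against control, was 0.37 ± 0.33 (SE, edgeR quasi-likelihood test, Benjamini-Hochberg adjusted p = 0.863) and -0.17 ± 0.12 without KO F731.

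Hbb-bh1, an embryonic beta-like gene that peaks early in primitive red cells, was rare. Its level was 2.94, 4.57 and 8.75 CPM in the KO libraries and 3.72, 3.19 and 6.39 CPM in the controls. KO F731 was highest, with control F725 next. Hbb-y exceeded Hbb-bh1 by 118-fold to 188-fold in counts, with transcripts of similar length. The log2 fold change of Hbb-bh1 was 0.26 ± 0.43 (SE, adjusted p = 0.877, edgeR) and -0.22 ± 0.34 without KO F731.

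Hba-x, the embryonic zeta-like chain of the alpha locus, had the largest estimated change of the 9 genes. Its level was 35.5, 47.3 and 157 CPM in the KO libraries and 30.5, 31.5 and 54.8 CPM in the controls. The KO libraries F727 and F728 lay between the controls, and KO F731 was 3.92-fold above the mean of the other 5. The log2 fold change was 1.02 ± 0.54 (SE, unadjusted p = 0.0987, adjusted p = 0.863, edgeR) and 0.09 ± 0.26 without KO F731. It was the only one of the 9 genes whose estimate stayed above 0 without that library, and that estimate was smaller than its SE.

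Hba-a1 and Hba-a2, the adult alpha chains, were read as a pair. Hba-a1 stood at 343, 435 and 1574 CPM in the KO libraries and 433, 445 and 427 CPM in the controls. KO F728 lay among the closely spaced controls, KO F727 lay below all 3 of them, and KO F731 was 3.78-fold above the mean of the other 5. The log2 fold change of Hba-a1 was 0.85 ± 0.52 (SE, adjusted p = 0.863, edgeR) and -0.16 ± 0.10 without KO F731. The row of Hba-a2 gave 0.85 ± 0.52 and -0.16 ± 0.10, and as it may hold the same reads it is no separate evidence.

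The adult beta chains Hbb-bs and Hbb-bt also stood apart only in KO F731. Hbb-bs was at 129, 140 and 453 CPM in the KO libraries and 140, 169 and 127 CPM in the controls, and Hbb-bt at 62.0, 64.1 and 151 CPM in the KO libraries and 64.4, 70.7 and 61.5 CPM in the controls. For both genes KO F727 and F728 lay inside the range of the controls. The log2 fold changes were 0.73 ± 0.46 for Hbb-bs and 0.49 ± 0.33 for Hbb-bt (SE, adjusted p = 0.863 for each, edgeR), and -0.11 ± 0.12 and -0.06 ± 0.08 without KO F731.

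Alas2, the erythroid enzyme of the first step of heme synthesis, and Slc4a1, the anion exchanger of the red cell membrane, followed the globins at far lower levels. Alas2 was at 5.64, 6.39 and 14.8 CPM in the KO libraries and 5.11, 6.25 and 6.86 CPM in the controls, with KO F727 and F728 inside the range of the controls. Slc4a1 was at 0.990, 1.48 and 4.61 CPM in the KO libraries and 1.25, 1.58 and 1.80 CPM in the controls, from 36 to 71 counts a library. The log2 fold changes were 0.53 ± 0.36 for Alas2 and 0.54 ± 0.55 for Slc4a1 (SE, adjusted p = 0.863 for each, edgeR), and -0.01 ± 0.17 and -0.31 ± 0.28 without KO F731. Alas2 and Slc4a1 together were 0.00451, 0.00448 and 0.00366 of the globin counts in the KO libraries and 0.00361, 0.00449 and 0.00466 in the controls. The groups overlapped (exact permutation test, p = 0.9, and p = 1.0 without KO F731), and KO F731 lay just above control F722. With Hba-a2 left out the ratio was 0.00589, 0.00597 and 0.00520 in KO and 0.00479, 0.00603 and 0.00606 in control, and the mean log2 difference turned from -0.01 to 0.02.

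**Figure D2:**
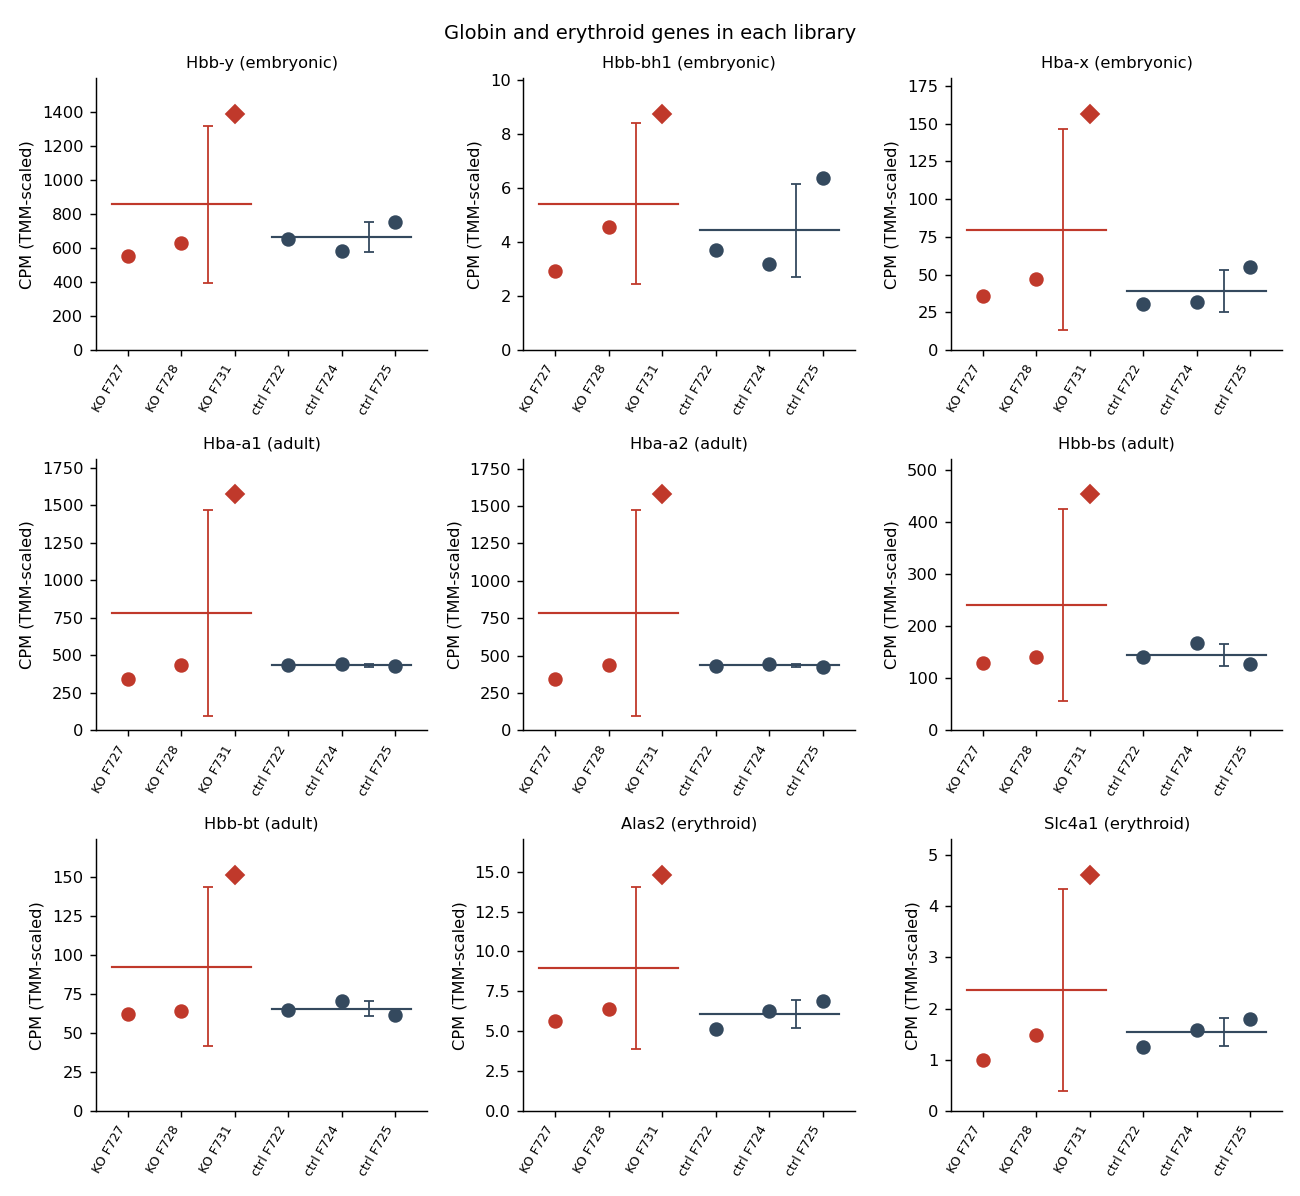
Level of each of the 9 genes in each library, in TMM-scaled CPM on linear axes from 0, with KO in red, control in dark blue and KO F731 as a diamond. Lines are group means and bars SD (n = 3). KO F731 is the highest library for all 9 genes, and the other KO libraries are near the controls.

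Levels between genes can be compared only per length of transcript. In control F722, the CPM per kilobase was 1035 for Hbb-y, 620 for Hba-a1, 224 for Hbb-bs, 91.6 for Hbb-bt, 38.1 for Hba-x, 6.06 for Hbb-bh1, 2.51 for Alas2 and 0.275 for Slc4a1. The order of these 8 genes was the same in 5 libraries. In KO F731 Hba-a1 (2251) came just above Hbb-y (2192). Hba-a2 is left out of this order because of its shared letters, and reads that fit both alpha copies may raise Hba-a1.

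Across all genes, the KO against control comparison called few or none, and no globin or erythroid gene was among them. The edgeR fit called 0 of 15027 genes tested at an adjusted p under 0.05 (0%), with 189 genes higher (1.26%) and 100 lower (0.665%) at an unadjusted p under 0.05, and DESeq2 called 18 of the 15632 genes to which it gave an adjusted p (0.115%). Of the 9 genes here, all of which passed the filter on low counts, 0 were called by either tool and 0 had an unadjusted p under 0.05 in edgeR. Groups did not overlap in 0 of the 9, against 3.86% of tested genes with every KO library above every control and 3.55% with every KO library below. All 9 estimates were above 0 with 6 libraries, with a median of 0.54, and 8 of 9 were below 0 without KO F731, with a median of -0.16. The median over all tested genes was 0.00 in both fits. The direction of the whole group over 6 libraries therefore rested on KO F731, and the 9 rows are not separate observations.

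**Figure D3:**
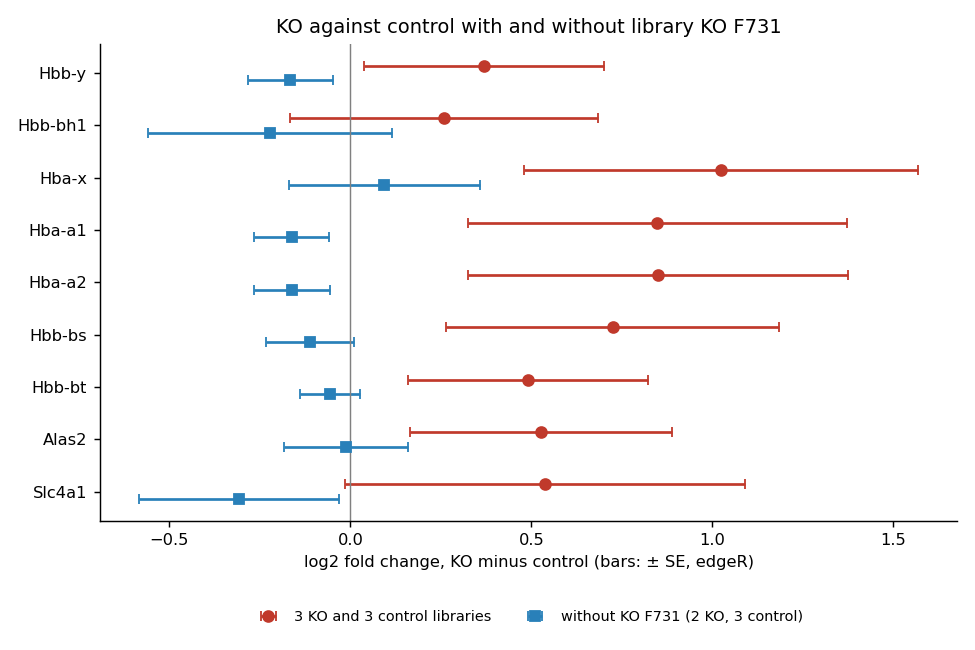
Log2 fold change, KO minus control, of each gene from edgeR with 3 KO and 3 control libraries (circles) and without KO F731 (squares), with bars of ± SE. All 9 circles lie above 0, between 0.26 and 1.02, and all squares but that of Hba-x lie below 0.

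KO F731 was the highest library for 9 of the 9 genes, and for 38.4% of all tested genes. The 9 rows are not separate observations, and those of Hba-a1 and Hba-a2 may hold the same reads. All 9 lay at least 1 log2 unit above the mean of the other libraries, as did 10.5% of tested genes. The deviations were 2.01 for Hba-x, 1.92 for Hba-a1, 1.69 for Hbb-bs and for Slc4a1, 1.29 for Alas2, 1.23 for Hbb-bt, 1.14 for Hbb-y and 1.12 for Hbb-bh1. In the same library, short and GC-rich transcripts were higher across all tested genes. The 14455 tested genes with a matched transcript (96.2%) were split into 10 groups of equal size by length and, separately, by GC content. The median deviation ran from 0.52 in the group of shortest transcripts, up to 1363 bases, to -0.34 in the group of longest, and from -0.16 in the group lowest in GC to 0.25 in the highest. All 7 globin transcripts were in the shortest group, and all 7 lay above its median. Their GC content was 46.8% in Hbb-bh1, 48.8% in Hbb-y, 50.8% in Hbb-bt, 51.3% in Hbb-bs and 55.7% to 57.2% in the alpha-like genes, which had the largest deviations. Slc4a1, at 4545 bases in a length group whose median deviation was -0.20, was raised as much as Hbb-bs. The part of transcript length, GC content and ribosomal RNA in the globin levels of KO F731 was not tested.

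**Figure D4:**
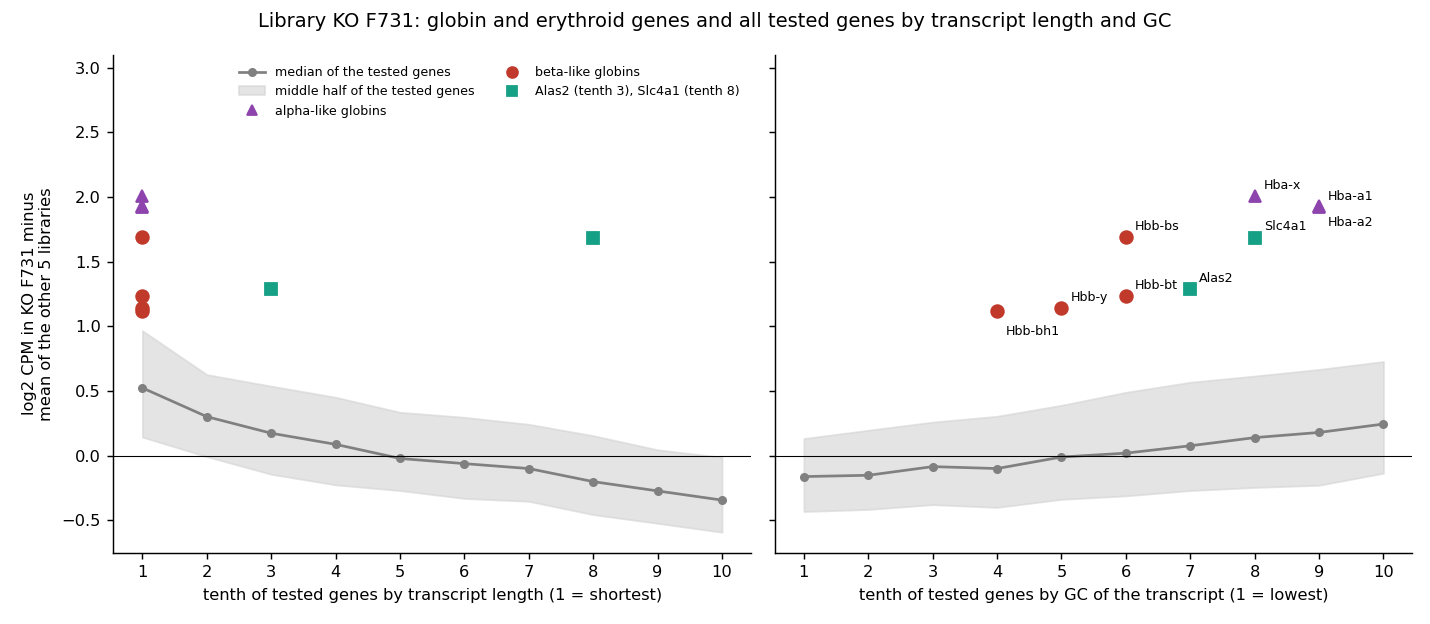
Log2 CPM of KO F731 minus the mean of the other 5 libraries, against 10 equal groups of tested genes by transcript length and by GC content. The grey line is the median and the band the interquartile range of tested genes, and symbols are the 9 genes. The median falls from 0.52 to -0.34 with length and rises from -0.16 to 0.25 with GC, and all 9 genes lie above 1.

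Markers of other cells in and around blood also had their highest summed level in KO F731, though not in every gene. Of 10 platelet and megakaryocyte genes, 4 were tested, 0 were called and 4 of 4 had KO F731 at least 1 log2 unit above the others (Itga2b, Pf4, Gp1bb and Gp1ba). The summed level of the 10 listed genes was 174 CPM in KO F731 and 58.5 to 69.5 CPM in the other libraries. Most of it came from Gp1bb, at 161 CPM in KO F731 and 56.0 to 66.0 CPM elsewhere. Itga2b, Pf4 and Gp1ba were at no more than 4.34 CPM in any library. The sum is therefore mainly the level of Gp1bb, and whether its counts came from platelets was not tested. The 14 microglia and macrophage genes summed to 92.6 CPM against 46.2 to 53.3 CPM. The 12 endothelial genes summed to 230 CPM against 131 to 168 CPM, and the 10 meningeal and mesenchymal genes to 112 CPM against 37.1 to 91.9 CPM. The 14 genes of other leukocytes summed to 8.13 CPM against 0.636 to 1.19 CPM. Only 2 of these 14 passed the filter on low counts, and 13 had counts in KO F731 against 4 to 7 in the other libraries. Of 10 genes for fetal liver and plasma proteins, 10 had counts in KO F731 and 4 to 6 in the other libraries. Over the whole table, 22991 of 24421 genes had counts in KO F731 and 17795 to 18320 in the others. The 10 genes summed to 19.1 CPM in KO F731 against 0.982 to 6.43 CPM. Most of the sum in KO F731 came from Ttr, at 12.9 CPM there and 0.268 to 5.56 CPM elsewhere. KO F731 was at least 1 log2 unit above the others in 5 of 14 tested microglia and macrophage genes, 1 of 2 tested leukocyte genes, 2 of 12 endothelial, 5 of 10 meningeal and 2 of 3 tested liver and plasma genes. The share over all tested genes was 10.5%. Cldn5, a tight junction gene, was at 65.2 CPM in KO F731 and 19.6 to 23.2 CPM elsewhere, while Kdr, an endothelial receptor, was at 18.9 CPM in KO F731 and at 16.3 to 24.2 CPM elsewhere. The part of these cells in the globin levels was not tested.

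In the lists of the wider red cell programme no gene was called either, and the distance of their medians from those of the globins depended on KO F731. Without that library the median log2 fold changes were -0.17 for the embryonic and -0.14 for the adult globins, 0.05 for heme and iron genes, -0.06 for membrane genes, -0.02 for cytosol genes and 0.00 for transcription factors. Of 22 heme synthesis and iron supply genes, all tested, 0 were called, 15 estimates were above 0 and 7 below, and the median log2 fold change was 0.06, beside 0.00 over all tested genes. Every KO library lay above every control for 2 of the 22, Alad and Fech, where 3.86% of all tested genes did, and below for 2, Cpox and Abcb10, where 3.55% did. Cpox and Abcb10 were named after their values were seen. Alad, the enzyme after aminolevulinate synthase, was at 75.04, 78.2 and 140 CPM in the KO libraries and 74.4, 63.9 and 71.2 CPM in the controls (log2 fold change 0.48 ± 0.24, SE, adjusted p = 0.863, edgeR, and 0.13 ± 0.08 without KO F731). Fech, whose enzyme inserts iron to form heme, was at 19.6, 19.6 and 21.1 CPM in KO and 16.3, 18.5 and 18.3 CPM in control. Its log2 fold change was 0.19 ± 0.11 (SE, adjusted p = 0.863, edgeR), and 0.15 ± 0.10 without KO F731.

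Of 22 genes of the red cell membrane and skeleton, 15 were tested and 0 called, with a median log2 fold change of -0.03. Of these, 4 had KO F731 at least 1 log2 unit above the other libraries, as did 10.5% of all tested genes. The 4 were Slc4a1, Ermap, Rhd and Kel, the last named after its values were seen. Counts were low, at 8 to 25 a library for Ermap and 6 to 12 for Rhd. Of 21 cytosol and maturation genes, 14 were tested and 0 called (median 0.08). Of 19 erythroid transcription factors and globin switching genes, 16 were tested and 0 called (median -0.06), and none had KO F731 at least 1 log2 unit above the others. Klf1, the erythroid factor that activates adult beta globin, was at 0.825, 0.448 and 0.757 CPM in the KO libraries and 0.639, 0.312 and 0.408 CPM in the controls, from 11 to 30 counts, and KO F731 did not lead. Bcl11a, which silences embryonic beta-like genes in red cells and is also a cortical neuron gene, was at 226 to 256 CPM in the KO libraries and 253 to 258 CPM in the controls, and is named here for that role after its values were seen. Of the 8 neighbours of the alpha-globin cluster, 7 were tested and 0 called (median 0.00), and the list's summed level of 395 CPM in KO F731 lay inside the 384 to 400 CPM of the other libraries. Of the 7, 4 estimates were above 0 and 3 below. Snrnp25, with the smallest unadjusted p, was at 27.2, 29.0 and 49.7 CPM in KO and 29.1, 21.6 and 23.4 CPM in control. Its log2 fold change was 0.51 ± 0.24 (SE, adjusted p = 0.863, edgeR), and 0.19 ± 0.13 without KO F731. Nprl3, whose introns hold alpha-globin enhancers, was at 32.8, 32.8 and 25.9 CPM in the KO libraries and 38.1, 35.3 and 33.9 CPM in the controls. Every KO library lay below every control for Nprl3, as for 3.55% of all tested genes. Its log2 fold change was -0.23 ± 0.13 (SE, adjusted p = 0.863, edgeR), and -0.13 ± 0.08 without KO F731.

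Of the globins outside the alpha and beta loci, Ngb and Cygb, the neuroglobin and cytoglobin genes, were tested and not called (log2 fold changes 0.05 ± 0.52 and 0.12 ± 0.18, SE, edgeR), and both had their highest level in KO F731. Of the other genes of the globin loci, Hbb-bh2 had 1, 1 and 3 counts in the KO libraries and 0 in all 3 controls, and Hbq1a had 7 to 15 counts in the KO libraries and 4 to 9 in the controls, too few to test, and both were named after their counts were seen.

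Among the 10 genes outside the erythroid lists whose pattern over the 6 libraries was nearest to the summed 7 globins, by root-mean-square difference of centred log2 CPM, were Lgals1 (0.034), Gstt2 (0.090), Xrra1 (0.093), Myo18b (0.094), Ptpn7 (0.1004), Ccdc85b (0.102), Nenf (0.108), Npr1 (0.111) and Ap2s1 (0.113). A gene at equal CPM in all libraries would be at 0.618. Lgals1 was at 9.66, 11.2 and 34.4 CPM in the KO libraries and 11.8, 11.0 and 12.3 CPM in the controls. Hba-a1, itself part of the sum, was at 0.120, Hbb-y at 0.204 and Hbb-bh1 at 0.350. Only 2 of the 77 tested genes of the erythroid lists were among the nearest 50 of the 15027 tested genes. These were Hba-a1 and Hba-a2, both part of the sum and possibly the same reads. The likeness rests on the height of KO F731, which the genes share with many others.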

How the data were processed

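RNA was sequenced from E13.5 forebrain of 3 KO and 3 control embryos. Per the methods, the authors trimmed reads with Trimmomatic and aligned them to mm10 with HISAT2. The counting program, its use of strand and its treatment of reads that fit several genes are not stated in those methods or in the labels. The labels describe a polyA library kit and the methods a total RNA kit. The deposited table holds raw counts per gene, which were used as deposited. Its column headers name a group and an animal number that the labels do not repeat, so columns were assigned to groups and not to single samples, and 18 columns of other samples were not used.

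Genes were kept by filterByExpr with a minimum count of 10 and scaled by TMM. KO was compared with control by the quasi-likelihood test of edgeR 4.0.16 with Benjamini-Hochberg adjustment over all tested genes, at an adjusted p of 0.05. DESeq2 1.42.0, limma 3.58.1 (voom), other scalings and filters, and each library left out were alternatives, in R 4.3.3. Ratios of summed counts were compared on the log2 scale by two-sided exact permutation tests over libraries (scipy 1.17.1), and shares carry Wilson 95% intervals. P-values measure the spread between these libraries. Sequences came from RefSeq (promoters) and GENCODE M21 on GRCm38.

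The genes and the gene lists were chosen with earlier results of these data known. Unless a gene is said to be named after its values were seen, those named were the chosen genes, up to 4 genes of each other list with the smallest unadjusted p, and the 10 genes nearest in pattern to the summed globins, of which 9 are given and the other is not reported here.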

Additional observations from a re-analysis of the deposited data

How the results depend on the processing

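KO F731 decided the direction of most results. Without it, the mean log2 difference, KO minus control, was -0.1708 for globin share (range over single libraries left out -0.1708 to 0.6523) and 0.01015 for the embryonic to adult ratio (-0.3445 to 0.01015). The ratio of Alas2 and Slc4a1 to globins was 0.0899 without KO F731, 0.03302 without control F724 and 0.06093 without control F725 (-0.1235 to 0.0899), and 0.02146 with Hba-a2 left out, which was chosen after seeing the data. The beta-like ratio (-0.3876 to -0.0258) and the alpha-like ratio (0.1237 to 0.5562) kept their direction. The alpha-like to beta-like ratio was -0.002035 without KO F731 (-0.002035 to 0.3844), Hbb-bs to Hbb-bt -0.04896 (-0.04896 to 0.2148), and Hbb-y to Hbb-bh1 -0.07767 without KO F727 and -0.1619 without control F725 (-0.1619 to 0.1506).

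Without KO F731 the log2 fold changes in edgeR and, as an alternative added after seeing the data, in DESeq2 were -0.1657 and -0.1686 for Hbb-y, -0.2217 and -0.2318 for Hbb-bh1, -0.1624 and -0.1651 for Hba-a1, -0.1621 and -0.1648 for Hba-a2, -0.1117 and -0.1141 for Hbb-bs, -0.05642 and -0.05921 for Hbb-bt, -0.01261 and -0.01457 for Alas2, and -0.3089 and -0.3151 for Slc4a1. The highest values with a single library left out were 0.5957 for Hbb-y, 0.6134 for Hbb-bh1, 1.196 for Hba-a1, 1.199 for Hba-a2, 1.018 for Hbb-bs, 0.7034 for Hbb-bt, 0.7692 for Alas2 and 0.9183 for Slc4a1. Hba-x stayed above 0 in 13 of 13 alternatives. Over all alternatives the adjusted p of the 9 genes ran from 0.570 to 1.0 (edgeR, limma-voom or DESeq2). DESeq2 called 18 genes, 33 without KO F731, and edgeR without a filter called 1, while the other alternatives called 0, as did the edgeR fit. The cause was not tested.

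No paired analysis was possible because the columns of the count table carry animal numbers and no replicate number. Reads shared by near-identical adult globin copies, 36 to 71 counts for Slc4a1 and 3 libraries a group limit the precision.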
